A study of Mus musculus with 4 samples.

Results

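The 10 genes described here code for heat shock proteins and their co-chaperones: *Hspa1a*, *Hspa1b*, *Hsph1*, *Dnajb1*, *Dnaja1*, *Hspa8*, *Hspb1*, *Hsp90aa1*, *Hspa5*, and *Hspe1*. They were taken by name from the 32285 genes of the matrices. Levels came from single-cell RNA-sequencing (scRNA-seq), in which each captured mRNA molecule carries a unique molecular identifier (UMI). 4 libraries were made, 1 per group: bone marrow of control (CBM) and of tumor-bearing mice (TBM), and spleen of control (CS) and of tumor-bearing mice (TS). All were from C57BL/6J mice 8 to 16 weeks of age, and the tumor was PyMT-B6, a transplanted cell line from an MMTV-PyMT mammary tumor, in which the MMTV promoter drives the PyMT oncogene mainly in mammary epithelium. Spleens were minced, and bone marrow was removed from the bones by centrifugation. Both tissues, tumor-bearing or not, were then digested with collagenase and DNase and depleted of Lin+ cells. The remaining cells were sorted into CD45+ c-Kit+ populations (Sca-1+ and Sca-1-) and CD45- fractions split by CD31 or CD51 staining, which were pooled at equal ratios. The number of mice behind each library is not given in the sources used here.

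Heat shock proteins hold other proteins in a soluble state and help them fold. HSP70 proteins bind unfolded stretches, J-domain co-chaperones such as DNAJB1 and DNAJA1 deliver the client and start ATP hydrolysis, and nucleotide exchange factors such as HSPH1 release it. Under heat or oxidative stress the transcription factor HSF1 binds heat shock elements. It induces genes such as *Hspa1a*, *Hspa1b*, *Hsph1*, *Dnajb1*, and *Hspb1* within minutes. *Hspa8* and *Hsp90aa1* are already abundant in unstressed cells, and *Hspa5* answers to unfolded protein in the endoplasmic reticulum (ER). Enzymatic digestion of tissue is itself known to induce heat shock and immediate-early genes, so a list of 27 immediate-early and dissociation genes that holds no chaperone is given beside the main comparisons.

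Barcodes with at least 1000 genes and at most 10% mitochondrial UMIs were taken as cells, which left 3497 in CBM, 4340 in TBM, 3236 for CS, and 5188 for TS. The median cell was deeper in spleen (26323 UMIs in CS and 26808 in TS) than in bone marrow (13738 and 14386), and pairs of libraries shared 2 to 9 cell barcodes. Clusters were named from fixed markers, and a class name below means "-like" in that sense. HSPC stands for hematopoietic stem and progenitor cell, and none of the 11 HSPC markers was at 0 in the HSPC-like cells of any library. No cluster took the name of the endothelial or stromal marker list although CD45- gates were in the pool, and unnamed clusters held 11.7% to 33.0% of the cells. A level is given in CPM (UMIs per 1e6 UMIs), the UMIs of a gene summed over a class in a library and scaled to all UMIs of that class, and 28 such units had at least 50 cells. UMIs count molecules from their 3' end and need no scaling by gene length. With 1 library per group there is no test: intervals are 95% and cover counting error only, and a difference between 2 libraries compares those libraries, not the conditions. A level summed over a class does not by itself tell more cells with a transcript from more transcript per cell. Counts per cell are given only where stated.

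The promoters are shown first because the members differ in the elements that HSF1 and the ER stress factors bind. RefSeq promoters (GRCm38.p6) matched 8 of the 10 members, and *Hspa8* and *Hsp90aa1* had none to search. The 250 bases before each start were searched on both strands for 3 alternating units of a heat shock element (GAANNTTCNNGAA or its inverse), for 2 units (GAANNTTC or its inverse, which the longer form contains), and for the ER stress element (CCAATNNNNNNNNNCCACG). The 3-unit form lay in 0.466% of all promoters, the 2-unit form in 12.8%, and the ER stress element in 0.113%. Counted by gene, with any start site, these shares were 0.514%, 14.5%, and 0.13%. 30 bases around the matches are given 5' to 3' with the matching letters in capitals.
Hspa1a, chr17:34972242-34972271, minus strand: cgaaactgctgGAAGATTCctggccccaag
Hsph1, chr5:149636351-149636380, minus strand: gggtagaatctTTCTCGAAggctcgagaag
Dnaja1, chr4:40722333-40722362, plus strand: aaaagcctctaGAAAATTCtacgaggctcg
Hspb1, chr5:135887801-135887830, plus strand: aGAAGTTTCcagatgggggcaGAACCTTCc
Hspe1, chr1:55088053-55088082, plus strand: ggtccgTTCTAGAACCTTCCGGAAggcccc
Hspa5, chr2:34772019-34772048, plus strand: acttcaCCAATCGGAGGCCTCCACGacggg
Of the 8 members searched, *Hspe1* was the only one with the 3-unit form and *Hspa5* the only one with the ER stress element. The 2-unit form was in 6 of them, in *Dnaja1* at 1 of 3 start sites. *Hspa1b* had the same 30 bases as *Hspa1a* at chr17:34959324-34959353, and the pair differed at 3 of 250 promoter bases. A match is a run of letters, not a measured binding site, and the *Dnajb1* window held none of these runs.

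*Hspa1a* (ENSMUSG00000091971, chr17:34969190-34972156, minus strand) and *Hspa1b* (ENSMUSG00000090877, chr17:34956436-34959238, minus strand) code for the stress-inducible HSP70. Their coding sequences were identical at 99.48% of aligned bases and their 3' untranslated regions at 51.43%, and none of the 411 windows of 90 bases in the last 500 bases of *Hspa1a* occurred whole in *Hspa1b*. The predicted gene Gm20481 lies on the opposite strand of *Hspa1a*. Reads from the coding part could still be assigned to either gene, so the pair is also given as a sum.

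The inducible HSP70 pair was scarce in every class. Over the 28 units, *Hspa1a* plus *Hspa1b* ranged from 0.599 CPM in erythroid CBM cells to 38.2 CPM in dendritic CS cells, with a median of 5.10 CPM and 1819 UMIs in all. RNA free in the droplets, read from barcodes with at most 100 UMIs, held the pair at 8.60 CPM in CBM and 6.61 in TBM, against 20.1 in CS and 8.59 in TS. The level in cells lay below the free RNA of the same library in 20 units and above it in 4, by the interval of the cell level. *Hspb1*, the small heat shock protein HSP27, was nearly absent, with 47 UMIs in all units together and at most 2.13 CPM, in megakaryocyte TS cells, where 8 of the 12 UMIs came from 1 cell.

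**Figure D1:**
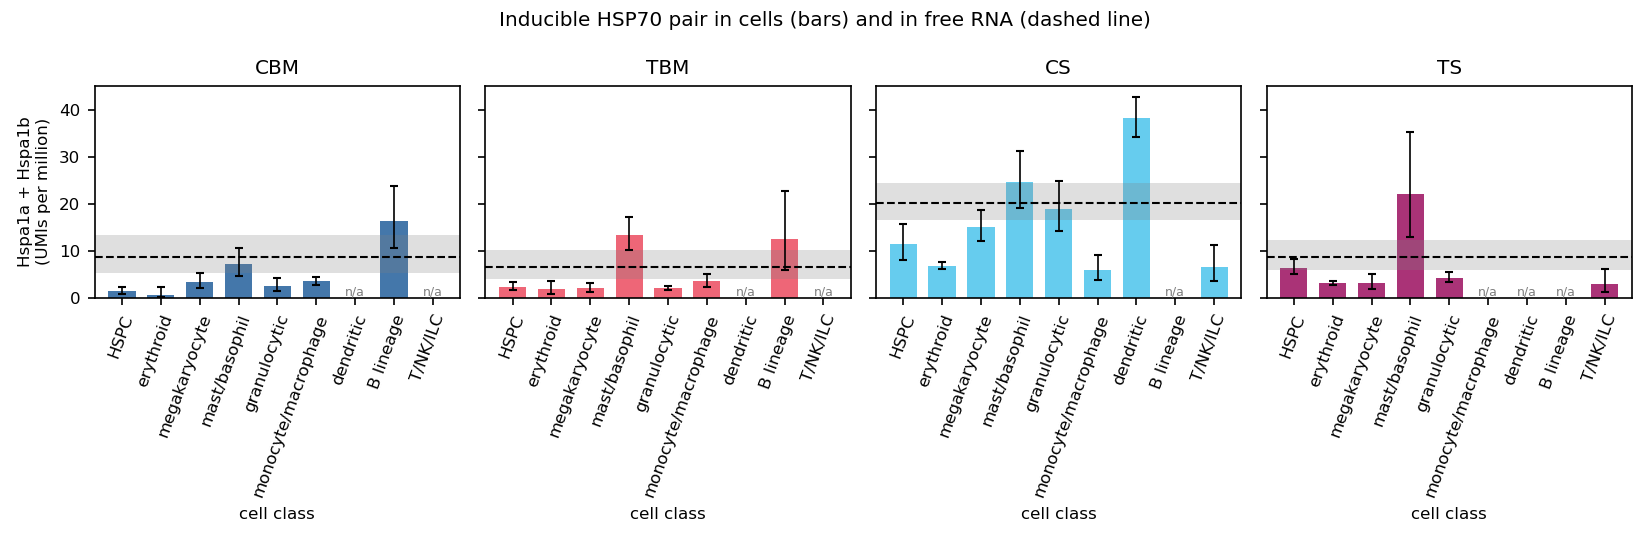
Summed *Hspa1a* and *Hspa1b* CPM (y axis) in each cell class (x axis) of the 4 libraries, with 95% Poisson intervals; the dashed line and grey band are the level in free RNA and its interval, and n/a marks classes under 50 cells. Dendritic CS cells reach 38.2 CPM, while most bars stay under the line of their library.

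In HSPC-like cells the pair stood at 1.45 CPM in CBM (19 UMIs in 816 cells) and 2.34 in TBM (35 UMIs in 926 cells), against 11.3 in CS (37 UMIs in 150 cells) and 6.41 in TS (69 UMIs in 693 cells). Both spleen libraries were higher than both bone marrow libraries, and the intervals of both ratios lay above 0, with a log2 ratio of 2.97 for CS over CBM (2.13 to 3.85) and 1.45 for TS over TBM (0.85 to 2.08). TS was lower than CS (-0.82, -1.42 to -0.21), and the interval of TBM over CBM included 0 (0.69, -0.16 to 1.58). In free RNA the pair differed in the same direction in CS over CBM (1.23, 0.53 to 2.00) as well as in TS over CS (-1.23, -1.86 to -0.64), and all 4 levels in HSPC-like cells were under that of the free RNA. With the free RNA profile subtracted as 10% of the UMIs, CS over CBM was 3.97. The subtraction left no *Hspa1a* in CBM, where the pair had only 19 UMIs before it, so this value rests on very few UMIs. *Hspa1b* alone had 3.02 after it. Inside single clusters, which held different shares of the class in each library, CS over CBM was 1.90 (0.31 to 3.36) in cluster 2 and 3.31 (1.71 to 5.33) in cluster 3, and TS over TBM was 1.80 (0.94 to 2.74) in cluster 3 and 0.46 (-0.68 to 1.68) in cluster 16. Taken singly over the class, both genes had an interval above 0 for CS over CBM. For TS over TBM *Hspa1a* had 2.28, while the interval of *Hspa1b* included 0. Inside cluster 3 *Hspa1a* stood at 5.75 CPM in TS and 0.82 in TBM, and *Hspa1b* at 2.87 and 1.65 with overlapping intervals. In cells thinned to 2000 UMIs each, 4 of 816, 2 of 925, 0 of 150, and 9 of 693 HSPC-like cells of CBM, TBM, CS, and TS held a UMI of the pair, and 0 of 150 allows a share of up to 2.43% (exact Clopper-Pearson limit), so neither the order of CS and TS nor that of CS and CBM was detectable at that depth.

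How the pair's UMIs, counted at each unit's own depth, were spread over cells differed between the units with a high level. Of 322 dendritic CS cells, 95 held the 317 UMIs, 42 held 3 or more, and the highest had 22. In mast or basophil CS cells 46 of 365 held the 69 UMIs (24.6 CPM), with at most 4 in a cell. Granulocytic CS cells had 54 UMIs, of which 18 were in 1 cell, and megakaryocyte CS cells had 83, of which 23 were in 1 cell. In mast or basophil TS cells 14 of the 17 UMIs came from 1 cell, so their 22.0 CPM rests on that cell. Over the classes the ratio in CS over CBM ran from 0.74 (-0.02 to 1.45) in monocyte or macrophage cells to 3.49 (1.62 to 6.54) in erythroid cells, where CBM had 2 UMIs. The ratio in TS over CS ran from -2.24 (-3.06 to -1.49) in megakaryocyte cells to -0.16 (-1.02 to 0.62) in mast or basophil cells. For the sum, free RNA moved in the same directions, as given above. The single genes did not always share a sign. In CS over CBM *Hspa1b* had -1.85 in monocyte or macrophage cells (0.541 CPM in CS), while *Hspa1a* was above 0 in 5 of 5 classes. That *Hspa1b* interval included 0, so its sign was within counting error. In TS over CS *Hspa1a* had 1.64 in mast or basophil cells, while *Hspa1b* was below 0 in all 6 classes (-1.84 to -1.27). The mast or basophil value comes from the unit where 14 of the 17 UMIs of the pair were in 1 cell.

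The other 7 members were present in every unit, most of them at levels far above those of the pair. *Hspa8* (chr9:40800984-40810087, plus strand), the constitutive HSP70, ranged from 1022 CPM in B lineage TBM cells to 2409 in erythroid TS cells. *Hsp90aa1* (chr12:110690605-110702728, minus strand), a cytosolic HSP90, ranged from 473 CPM in dendritic CS to 2347 in erythroid CS cells. *Hspe1* (chr1:55088132-55091307, plus strand), the mitochondrial HSP10, ranged from 236 CPM in mast or basophil CBM cells to 1203 in erythroid CS cells. *Hspa5* (chr2:34771970-34777547, plus strand), the ER HSP70 known as BiP, ranged from 318 CPM in erythroid CBM to 1322 in granulocytic TS cells. The highest unit of each of the first 3 genes was thus erythroid cells of a spleen library, and the lowest unit of *Hspa5* was erythroid CBM cells. These are single units and give no order of the classes in every library.

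Among the co-chaperones, *Dnaja1* (chr4:40722150-40737149, plus strand) ranged from 207 CPM in B lineage TBM to 957 in mast or basophil CS cells. *Dnajb1* (chr8:83608193-83612653, plus strand) ranged from 33.1 CPM in granulocytic CBM to 218 in mast or basophil TS cells. *Hsph1* (chr5:149614287-149636376, minus strand), also called HSP110, ranged from 12.4 CPM in B lineage TBM to 122 in erythroid CS cells. The highest unit of *Dnajb1* and that of *Dnaja1* were mast or basophil cells. This class also had the highest summed level of the dissociation list (13864 CPM in CBM and 18234 in TBM, against 24534 in CS and 16064 in TS). In CBM, however, *Dnajb1* was higher in erythroid cells (337 of 3341275 UMIs) than in mast or basophil cells (292 of 3361684). *Hspd1* overlaps *Hspe1* on the opposite strand, and *Smu1* overlaps *Dnaja1*.

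**Figure D2:**
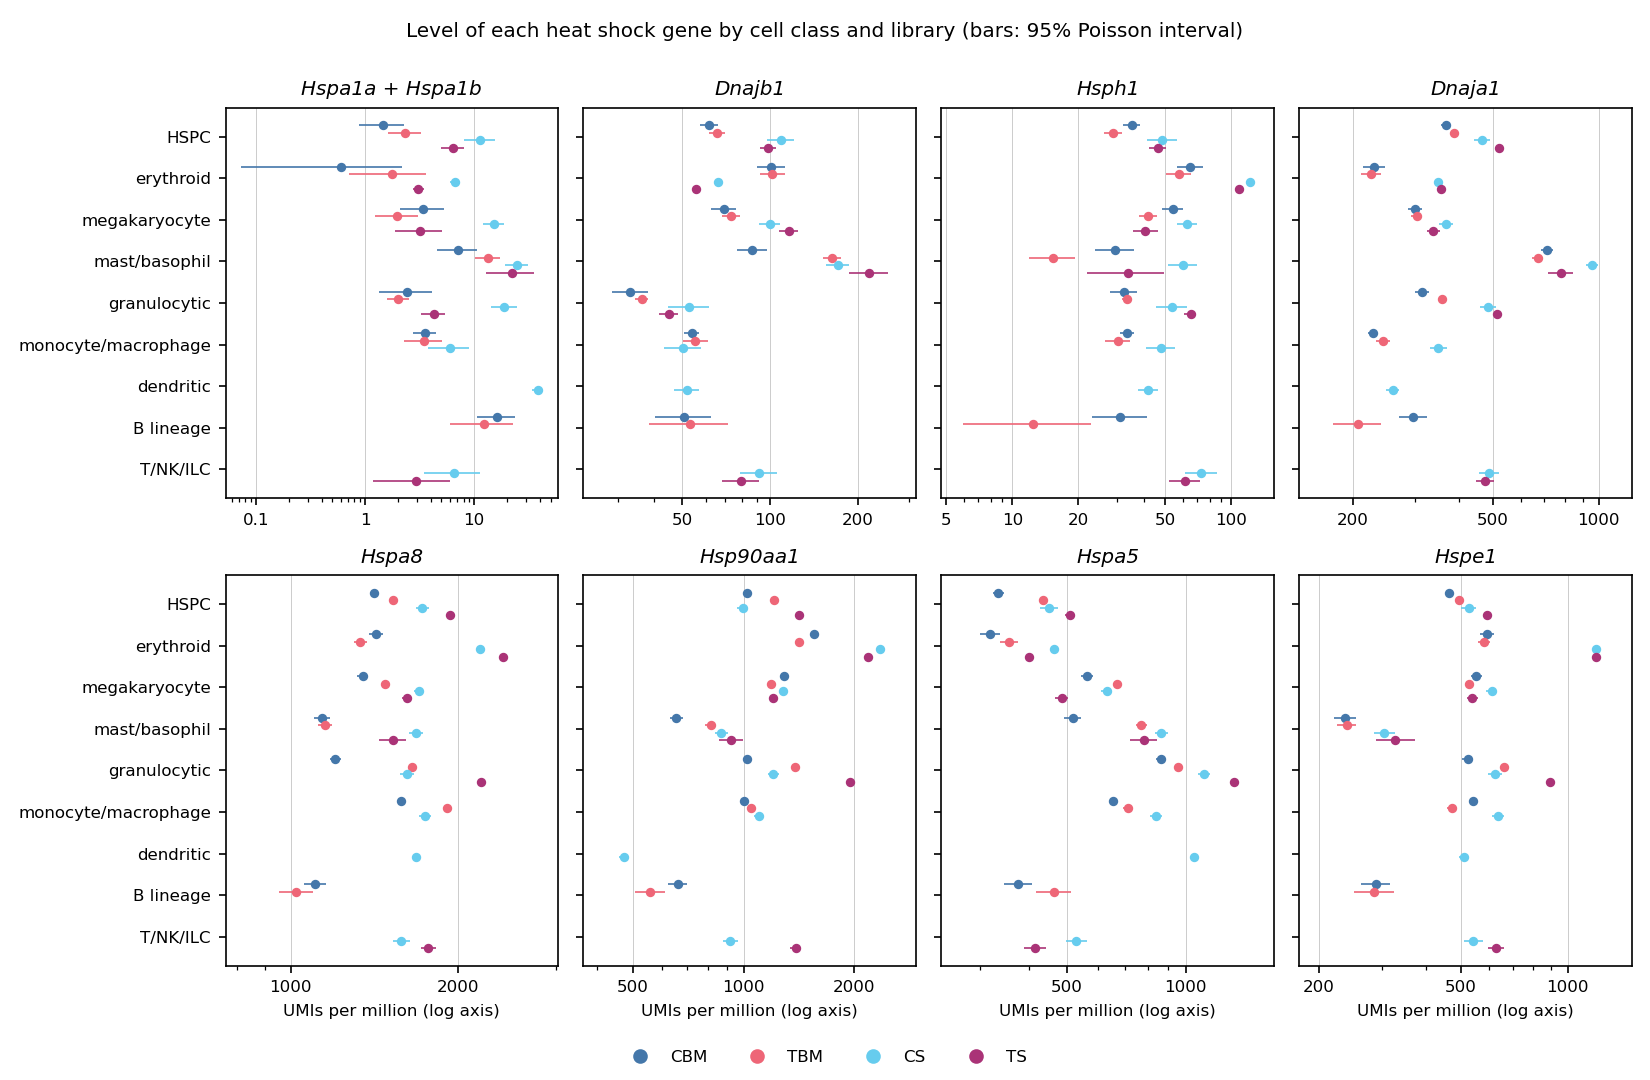
Level of 8 readouts (CPM, log axis) in each cell class (rows) and library (colors), with 95% Poisson intervals as bars. The inducible pair spans 0.599 to 38.2 CPM, while *Hspa8* stays between 1022 and 2409 CPM.

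In HSPC-like cells, 7 members reached the minimum mean of 20 CPM, and none of them differed 2-fold or more between libraries in any of the 4 comparisons. Under 3 alternatives 1 member passed 2-fold, as given in the section on processing. For CS over CBM, 0.761% of the 6310 genes tested were at least 2-fold higher and 0.174% at least 2-fold lower. For TS over TBM these shares were 0.406% and 0.341% of 6151 genes. For TS over CS they were 0.323% and 0.743% of 6193 genes, and for TBM over CBM 0.498% and 0.257% of 6230 genes. A count of 0 of 7 is near these shares and says nothing particular about the members. The HSPC-like cells lay in 3 clusters whose shares differed between libraries. Cluster 2 held 67.4% of them in CBM and 49.0% in TBM, with 44.7% in CS but 4.91% in TS, while cluster 3 held 20.3% in CBM and 35.8% in TBM, against 41.3% in CS and 64.1% in TS. Cluster 3 had at least 50 cells in every library, so its own ratios are given beside those of the class.

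Between spleen and bone marrow, the co-chaperone genes *Dnajb1* and *Hsph1* had the highest ratios of the 7 members. *Dnajb1* stood at 61.8 CPM in CBM and 65.8 in TBM, against 109 in CS and 98.2 in TS, and both spleen libraries were above both bone marrow libraries (log2 ratio 0.82, 0.63 to 1.00, for CS over CBM and 0.58, 0.45 to 0.71, for TS over TBM). *Hsph1* stood at 35.1 CPM in CBM and 28.9 in TBM, against 48.5 in CS and 46.0 in TS, again higher in both spleens (0.47, 0.20 to 0.73, and 0.67, 0.48 to 0.86). Free RNA held *Hsph1* at 27.5 CPM in CBM and 29.1 in TBM, against 58.4 in CS and 72.9 in TS, which moved the same way and was above the cell level in both spleens. For *Dnajb1* free RNA had 0.77 (0.46 to 1.09) in CS over CBM and 0.14 (-0.14 to 0.43) in TS over TBM. The part of free RNA in the ratios was not tested beyond the subtraction of 10%. This left 0.40 and 0.57 for *Hsph1* and 0.82 and 0.62 for *Dnajb1*. *Dnaja1* stood at 367 CPM in CBM and 389 in TBM, against 466 in CS and 521 in TS (0.34, 0.26 to 0.43, and 0.42, 0.37 to 0.48). Inside cluster 3 the ratios in CS over CBM and TS over TBM were 0.88 and 0.93 for *Dnajb1*, 0.47 and 0.45 for *Dnaja1*, and 0.19 (-0.22 to 0.60) and 0.31 (0.04 to 0.59) for *Hsph1*.

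*Hspa8* followed the same order with smaller ratios, at 1408 CPM in CBM and 1529 in TBM, against 1722 in CS and 1936 in TS (0.29, 0.25 to 0.33, and 0.34, 0.31 to 0.37). *Hspa5* was at 335 CPM in CBM and 434 in TBM, against 449 in CS and 507 in TS (0.43, 0.34 to 0.51, and 0.22, 0.17 to 0.28). *Hspe1* was at 464, 494, 526, and 593 CPM in CBM, TBM, CS, and TS. Inside cluster 3, TS and TBM did not differ beyond counting error in *Hspa5*, at 502 against 492 CPM (0.03, -0.05 to 0.10), or in *Hspe1* (-0.02, -0.09 to 0.05), while *Hspa8* had 0.20 in CS over CBM and 0.21 in TS over TBM. Cluster 16 also had at least 50 cells in TS and TBM, and there all 7 members had an interval above 0. *Hspa5* was at 521 against 418 CPM there and *Hspe1* at 657 against 573. *Hsp90aa1* was the exception among the 7, with 1019 CPM in CBM and 995 in CS (-0.03, -0.09 to 0.02), though in TS over TBM it had 0.22 (0.19 to 0.25). Inside cluster 3 these ratios were -0.19 (-0.27 to -0.11) and -0.02 (-0.06 to 0.03). In cluster 16 *Hsp90aa1* was at 1514 CPM in TS and 1336 in TBM. The median log2 ratio of the 7 members was 0.34 in CS over CBM and 0.34 in TS over TBM, against 0.04 and 0.03 over all genes tested. Inside cluster 3 these medians were 0.19 and 0.21, against 0.02 and 0.03. In cluster 16 the median for TS over TBM was 0.32, against 0.03 over all genes.

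**Figure D3:**
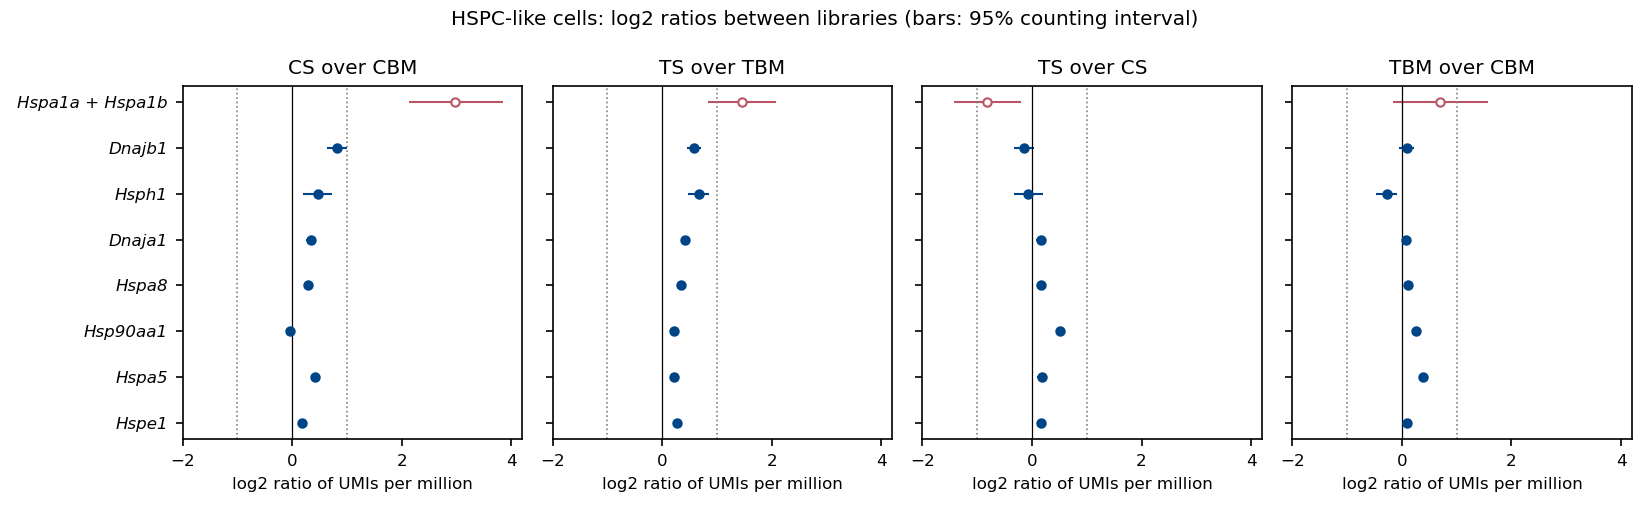
Log2 ratios of CPM (x axis) between libraries for HSPC-like cells in the 4 comparisons; filled points are the 7 members above the minimum level, the open point is the *Hspa1a* and *Hspa1b* sum, bars are 95% counting intervals, and dotted lines mark 2-fold. *Dnajb1* has the highest of the filled points for CS over CBM (0.82) and *Hsp90aa1* for TS over CS (0.51).

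Between spleen and bone marrow, the dissociation list had larger median ratios in HSPC-like cells than the members above the minimum level. The *Hspa1a* and *Hspa1b* pair was under that minimum, and its ratios, given above, were larger than the list medians. The 27 genes of the list summed to 5443 CPM in CBM and 5892 in TBM, against 10022 in CS and 9273 in TS. For CS over CBM 24 genes were tested. Of these, 10 were at least 2-fold higher in CS and none at least 2-fold lower, with a median log2 ratio of 0.89. *Atf3*, a stress-induced repressor, stood at 37.1 CPM in CS against 5.04 in CBM (2.88), *Jun*, a subunit of AP-1, at 671 against 158 (2.08), and *Egr1*, an immediate-early zinc finger factor, at 1010 against 276 (1.87). For TS over TBM 5 of 24 genes were at least 2-fold higher and 2 at least 2-fold lower, with a median of 0.51, led by *Egr1* (2.13), *Gadd45b* (2.04), and *Nfkbia* (1.90), while *Klf4* had -2.21. Inside cluster 3 the list had larger counts, with 18 of 25 genes at least 2-fold higher in CS than in CBM (median 1.24) and 14 of 23 in TS than in TBM (median 1.23), and 0 at least 2-fold lower in either. The list's median was -0.10 in TS over CS and 0.14 in TBM over CBM, where 3 of 24 genes were at least 2-fold higher. Digestion was applied to both tissues, but spleens were minced and bone marrow was removed by centrifugation. Tissue, its handling, and any unequal response to its dissociation therefore cannot be told apart.

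No tested gene of the wider chaperone lists differed 2-fold in HSPC-like cells as a class. Of the cytosolic heat shock list, 25 of 36 genes were tested in each comparison, and 0 passed 2-fold in either direction, with medians of 0.09 for CS over CBM, 0.18 for TS over TBM, 0.17 for TS over CS, and 0.07 for TBM over CBM. *Hsf1*, the heat shock transcription factor, was at 32.1 CPM in CBM and 35.8 in TBM, against 37.1 in CS and 33.8 in TS. *Bag3*, an HSF1-induced co-chaperone of HSP70, was under the minimum with 8.03, 7.69, 6.44, and 6.97 CPM in the same order, and its intervals included 0 in all 4 comparisons. The member of this list with the highest ratio for CS over CBM was *Chordc1*, an HSP90 co-chaperone (111 against 75.0 CPM, 0.57), followed by the ubiquitin gene *Ubb* (0.40) and *Hspa14* (0.37), and the lowest was *Hspbp1*, an HSP70 exchange factor (-0.65). For TS over TBM *Hspa14* (0.40), the HSP110 relative *Hspa4* (0.37), and *Stip1* (0.33), which links HSP70 to HSP90, were highest. The other HSP90, *Hsp90ab1*, had ratios of 0.07, 0.17, 0.31, and 0.21 for CS over CBM, TS over TBM, TS over CS, and TBM over CBM.

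The chaperonin TRiC/CCT, which folds actin and tubulin, and its partner prefoldin had 14 of 14 genes tested, 0 past 2-fold, and 13 of 14 ratios above 0 in CS over CBM as in TS over TBM, with medians of 0.13 and 0.24. Over all genes tested the medians were 0.04 and 0.03, and the share of all genes above 0 was not computed. *Cct5* (0.38), *Cct3* (0.29), and *Cct8* (0.27) led CS over CBM. The mitochondrial list had 9 genes tested for CS over CBM, 8 for TS over TBM, and 0 past 2-fold in either. *Hspd1*, which codes for HSP60, the partner of HSP10, and shares its divergent promoter with *Hspe1*, had 0.28 in CS over CBM and 0.45 in TS over TBM, beside 0.18 and 0.26 for *Hspe1*. The 12 cycling genes were higher in TS than in TBM in 12 of 12, with a median of 0.63, and summed to 2368 CPM in TS, 1914 in CS, 1630 in TBM, and 1681 in CBM. Inside cluster 3, 0 of 9 cycling genes were higher in TS than in TBM (median -0.23), and inside cluster 16, which held 31.0% of TS and 15.2% of TBM cells, 9 of 12 were (median 0.09). The part of cycling in the chaperone ratios was not tested.

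**Figure D4:**
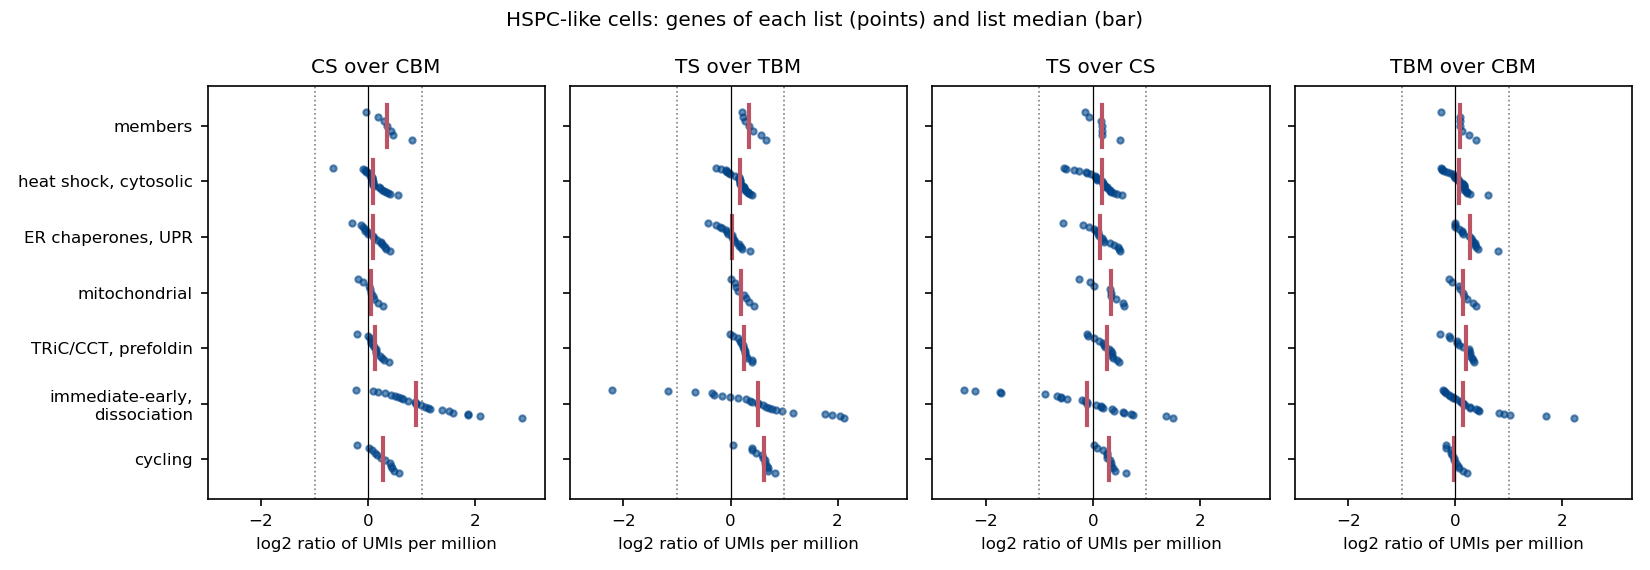
Log2 ratios of CPM (x axis) of single genes (points) and list medians (bars) for the members and 6 gene lists (rows) in HSPC-like cells, with dotted lines at 2-fold. Only genes with a mean of at least 20 CPM are drawn, so *Hspa1a*, *Hspa1b*, and *Hspb1* are left out. The immediate-early and dissociation list spreads from -0.22 to 2.88 for CS over CBM, while the drawn genes of every chaperone list stay inside 2-fold.

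The spleen direction of several members held inside single clusters. 9 named clusters had at least 50 cells in both CS and CBM, and *Hspa8*, *Dnaja1*, *Dnajb1*, and *Hspa5* were higher in CS in 9 of 9, against 2.67% of 6218 genes with this pattern. The interval lay above 0 in 9 clusters for *Hspa8*, 8 for *Dnaja1*, 8 for *Hspa5*, and 7 for *Dnajb1*, and the lowest *Hspa5* ratio, in a megakaryocyte cluster, was 0.00. For TS over TBM 7 clusters could be compared, and *Hspa8*, *Dnaja1*, and *Dnajb1* were higher in TS in 7 of 7, against 7.13% of 5944 genes, with the interval above 0 in 7, 7, and 6, while *Hspa5* was higher in 5 of 7. The clusters come from the same libraries and are not independent replicates. In free RNA *Hspa8*, *Dnaja1*, and *Dnajb1* had 0.43, 0.31, and 0.77 for CS over CBM, while *Hspa5* had -0.46. For TS over TBM these free RNA ratios were 0.43, 0.08, 0.14, and -0.61 in the same order. Median ratios over the clusters were 0.33 and 0.21 for *Hspa8*, 0.39 and 0.43 for *Dnaja1*, and 0.67 and 0.54 for *Dnajb1*. *Hsph1* was higher in CS in 8 of 9 clusters, with the interval above 0 in 5, and in TS in 5 of 7. *Hspe1* was higher in CS in 7 of 9 and in TS in 5 of 7, and *Hsp90aa1* in 6 of 9 and 5 of 7.

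For tumor-bearing against control tissue, *Hsp90aa1* had the highest ratio of the 7 members in HSPC-like cells in spleen and *Hspa5* in bone marrow, and both were smaller inside cluster 3. In clusters 2 and 16 *Hspa5* still differed between TBM and CBM, as given below. In TS over CS *Hspa5*, *Hspe1*, and *Hspa8* were alike within counting error, each at 0.17. *Hsp90aa1* was at 1412 CPM in TS and 995 in CS (0.51, 0.45 to 0.56) and at 1211 in TBM and 1019 in CBM (0.25, 0.22 to 0.28). Inside cluster 3 it was at 1346 CPM in TS and 1143 in CS (0.24, 0.16 to 0.31) and at 1364 in TBM and 1302 in CBM (0.07, 0.01 to 0.12). Inside clusters 2 and 16 *Hsp90aa1* was at 924 and 1336 CPM in TBM, against 852 and 1107 in CBM. In granulocytic cells its ratio was 0.69 for TS over CS and 0.43 for TBM over CBM, but these cells also lay in different clusters, with cluster 5 holding 80.0% of CS and 22.9% of TS cells and cluster 6 holding 5.86% of CBM and 37.6% of TBM cells. Inside cluster 5 the ratios were 0.53 and 0.29. It was not higher everywhere, with 4 of 7 clusters above 0 for TS over CS and 7 of 11 for TBM over CBM. The medians of the 7 members were 0.17 for TS over CS and 0.09 for TBM over CBM, against 0.01 over all genes in both. Inside cluster 3 they were 0.03 and 0.04, against -0.01 and -0.02 over all genes.

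*Hspa5* was higher in TBM than in CBM in 6 classes with an interval above 0, and the ratio of B lineage cells was not above 0 inside the cluster that held nearly all of them. The ratio was 0.38 in HSPC-like cells (434 against 335 CPM), 0.58 in mast or basophil cells (772 against 516), 0.26 in megakaryocyte cells (671 against 561), 0.16 in erythroid cells (356 against 318), 0.15 in granulocytic cells (958 against 865), and 0.12 in monocyte or macrophage cells (712 against 655). In B lineage cells the class ratio was 0.30 (462 against 375), with 116 of the 373 TBM UMIs in 1 cell. Cluster 17, which held 171 of the 173 TBM and 248 of the 249 CBM cells of that class, had -0.18 (-0.41 to 0.04). Inside HSPC-like cluster 3 the ratio was 0.04 (-0.05 to 0.13). In cluster 2 *Hspa5* was at 376 CPM in TBM and 288 in CBM, and in cluster 16 at 418 and 289. The intervals of the 2 levels did not overlap in either of these clusters. *Hspa5* was higher in 10 of 11 named clusters, with an interval above 0 in 9. Of 6303 genes, 8.69% were higher in at least 10 of the 11 clusters, counted without regard to intervals. In free RNA *Hspa5* also differed, at 610 CPM in TBM and 466 in CBM (0.39, 0.28 to 0.50). After 10% of the free RNA was subtracted, the ratios of the 6 classes other than B lineage ran from 0.10 to 0.60. Relative to the median of all genes it was 0.03 in monocyte or macrophage and 0.06 in granulocytic cells. Other ER genes of the HSPC-like cells had ratios for TBM over CBM of 0.79 for *Sdf2l1*, 0.43 for the J-domain protein gene *Dnajb11*, 0.39 for *Manf*, and 0.12 for the ER HSP90 gene *Hsp90b1*, and 13 of the 16 ER genes tested were above 0, with a median of 0.28 and 0 past 2-fold. The median over all genes tested was 0.01, and the share of all genes above 0 was not computed. By cluster the median of the ER list was 0.12 in cluster 2, 0.04 in cluster 3, and 0.35 in cluster 16, where 1 gene was at least 2-fold higher.

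In spleen the tumor-bearing library did not have more *Hspa5* throughout. Its ratio for TS over CS was 0.17 in HSPC-like cells and 0.25 in granulocytic cells, but inside HSPC-like cluster 3 it was -0.09 (-0.21 to 0.03), and it was above 0 in 1 of 7 clusters and had an interval below 0 in 5. The share of all genes with this pattern was not computed, so the count is a description only. In megakaryocyte cells *Hspa5* was at 485 CPM in TS and 629 in CS (-0.38).

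*Hsph1* went the other way in bone marrow. It was lower in TBM than in CBM in 6 of 7 classes and in 10 of 11 clusters, with an interval below 0 in 6 clusters, against 7.71% of 6303 genes with 10 or more clusters below 0. In HSPC-like cells the ratio was -0.28 (-0.47 to -0.09), and in mast or basophil cells -0.94 (69 against 99 UMIs). In B lineage cells it was -1.33 (-2.48 to -0.34), with 10 UMIs in TBM and 50 in CBM, which was the only member ratio at least 2-fold lower in any class above the minimum level, where 4.13% of 6105 genes were. The monocyte or macrophage cluster 14 was the cluster with a ratio above 0 (0.24, -0.08 to 0.55).

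In mast or basophil cells *Hsph1* was the member past 2-fold between tissues, with 29.4 CPM in CBM and 15.3 in TBM, against 59.9 in CS and 33.7 in TS. The ratio was 1.02 for CS over CBM, where 0.896% of 6026 genes were at least 2-fold higher, and 1.14 for TS over TBM (26 and 69 UMIs), where 1.21% of 5943 genes were. *Dnajb1* was at 86.9 CPM in CBM and 163 in TBM, against 170 in CS and 218 in TS, and CBM was the lowest (CS over CBM 0.97, 0.76 to 1.19, and TBM over CBM 0.91, 0.71 to 1.11). Inside cluster 4, led by *Ccl6*, *Ccl3*, and *Ccl4*, TBM over CBM was 0.95 for *Dnajb1* (0.64 to 1.27), while in cluster 23 it was -0.01 (-0.47 to 0.44). *Hsph1* had -1.25 (-2.09 to -0.47) in cluster 4 and -0.56 (-1.59 to 0.40) in cluster 23, so in cluster 4 the ratios of these HSF1 targets had opposite signs, while in cluster 23 both intervals included 0. The difference between the clusters was not tested. The dissociation list had medians of 0.84 in CS over CBM, -0.11 in TS over TBM, and 0.24 in TBM over CBM in this class. Cluster 4 held 77.9% of CBM but 44.7% of TBM cells of the class, and cluster 21 held 8.32% and 44.5%. No cluster of the class had 50 cells in TS, so its ratios with TS have no value inside a cluster.

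Erythroid cells showed the largest tissue difference of *Hspe1*, which went with a different cluster make-up. *Hspe1* was at 593 CPM in CBM and 581 in TBM, against 1203 in CS and 1199 in TS, a ratio of 1.02 in CS over CBM and 1.04 in TS over TBM. Of the 7 members above the minimum level it was the only one at least 2-fold higher, where 6.2% of 5405 and 8.82% of 5315 genes were. Over all genes the median ratios were 0.26 and 0.28 in this class, so relative to them *Hspe1* differed by 0.76 and 0.77 and *Hspa8* by 0.36 and 0.58. *Hspa8* was at 1424, 1332, 2186, and 2409 CPM in CBM, TBM, CS, and TS (0.62 and 0.85). *Dnajb1* was lower in spleen, at 101 CPM in CBM and 102 in TBM, against 66.4 in CS and 55.8 in TS (-0.60, -0.77 to -0.44, and -0.87, -1.01 to -0.72). The dissociation list had medians of 0.59 in CS over CBM and 0.90 in TS over TBM in these cells.

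The hemoglobin-led cluster 18 held 73.2% of erythroid CBM and 78.1% of TBM cells but 7.83% of CS and 2.19% of TS cells. The spleen cells lay in clusters that were mostly of 1 library, cluster 8 in CS (78.4%) and clusters 0 and 1 in TS (41.0% and 40.6%), and a cluster of 1 library may be that library and not a stage. Inside cluster 18, the CS over CBM ratio of *Hspe1* was -0.01 (-0.21 to 0.20), that for TS over TBM was 1.19 (0.99 to 1.38), and the *Dnajb1* ratios were 0.21 (-0.06 to 0.47) and 0.07 (-0.24 to 0.37). The TS cells of cluster 18 also had a median of 3.3% mitochondrial UMIs, against 1.63% in TBM, and over all genes the median TS over TBM ratio there was 0.24, with 3.05% of 4559 genes at least 2-fold higher. In cluster 18 *Dnajb1* was at 128 to 152 CPM in the 4 libraries, and in the other erythroid clusters at 51.2 to 66.7, so it was higher in the hemoglobin-rich cells in each library that could be compared (CS and TS). *Hspe1* was at 191 to 434 CPM in cluster 18 and at 1084 to 1508 in the others.

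**Figure D5:**
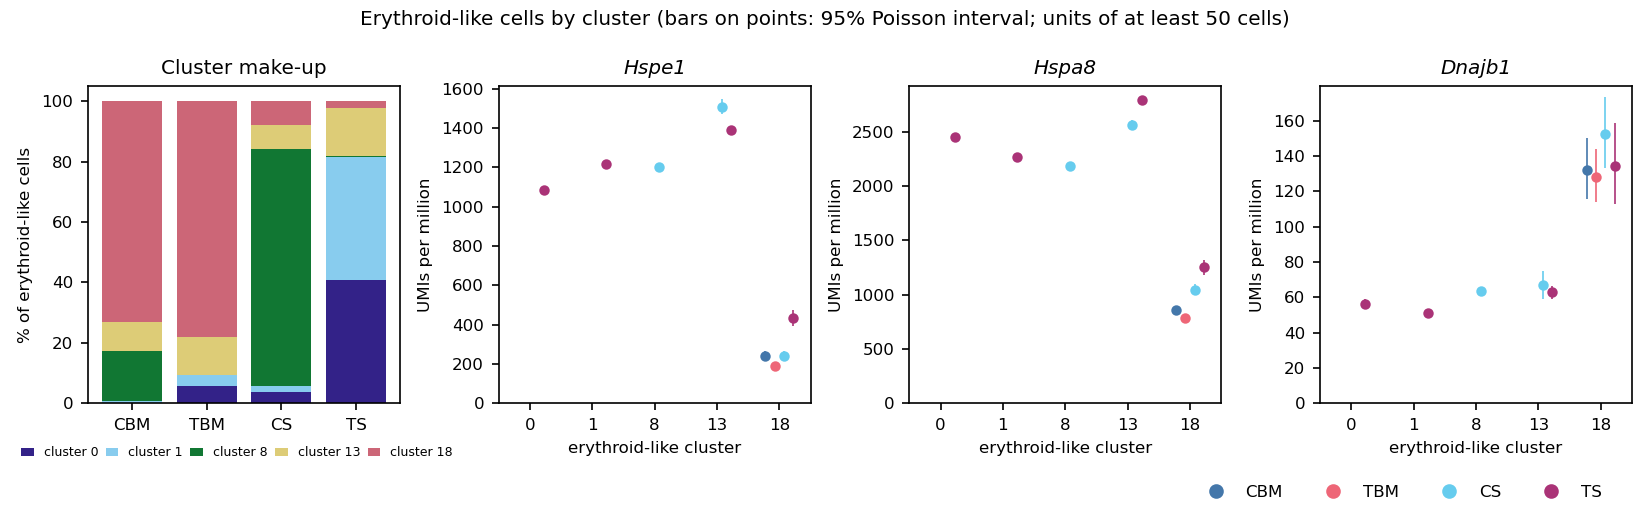
Left, percent of erythroid-like cells (y axis) of each library in the 5 erythroid-like clusters; right, *Hspe1*, *Hspa8*, and *Dnajb1* levels (CPM, y axes) in each cluster (x axes) and library (colors) with at least 50 cells, with 95% Poisson intervals. Cluster 18 has *Hspe1* at 191 to 434 CPM and *Dnajb1* at 128 to 152 CPM.

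Across the 28 units the members fell into different patterns, described by Pearson's r of log2(CPM + 1) among the 6233 genes with a mean of at least 20 CPM. The units share libraries and depth, so the r values are descriptions. *Hsph1* went with *Hspe1* (0.77), *Hspa8* (0.72), and *Hsp90aa1* (0.70), and *Dnajb1* with none of these (0.02 for *Hsph1*, -0.39 for *Hspe1*). The gene most like *Dnajb1* was *Tut7* (0.83), and the first 10 included the immediate-early genes *Egr1* (0.82), *Ppp1r15a* (0.82), and *Dusp1* (0.79). Across the cells within a unit, where counts are sparse, Spearman's rho of *Dnajb1* with the dissociation list had a median of 0.05 over 28 units (-0.19 to 0.36). Those most like *Hspa5* were mainly other ER genes, with *Pdia3* (0.90), *Hyou1* (0.87), *Creld2* (0.86), and *Hsp90b1* (0.85) among the first 10. *Hspa8* was most like *Hspa4* (0.84), *Hspe1* most like *Fam162a* (0.94) with *Cct8* (0.93) in the first 10, and *Hsp90aa1* had *Ncl* (0.94) and *Hspd1* (0.93). *Hspa1a* and *Hspa1b* had 0.71 with each other across units and a median rho of -0.01 across cells over 16 units. In no unit did more than 1 thinned cell hold both genes, so this rho cannot show whether they go together in cells. Their sum was most like *Fbrs* (0.76), *H2-D1* (0.75), *Trim41* (0.72), *Adgre5* (0.71), and *Irf1* (0.70). The first 10 held the prefoldin gene *Pfdn5* (0.68) but no HSP70 or HSP90 gene.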

How the data were processed

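The authors demultiplexed and counted the reads with Cell Ranger 4.0 on mm10 (per the labels), and the deposited values are UMI counts of every gene in every barcode, without normalization, cell calling, or ambient correction. The study's later steps (SoupX, a gene minimum, SCT) are not in these counts. Pearson residuals (theta 100) of 17487 genes, 50 components, 20 neighbors, and Leiden clustering at resolution 1.2 (leidenalg 0.10.2, scikit-learn 1.9.0, Python 3.11.15) gave 38 clusters, of which 26 were named from markers. Chaperone, immediate-early, and dissociation genes were left out of the clustering. No doublets were removed. Levels have exact Poisson intervals and ratios exact conditional (Clopper-Pearson) intervals. A ratio is computed where more than 3 UMIs were in 1 of the libraries, and a gene counts as past 2-fold only when it averages 20 CPM or more over both. PCR and free RNA are not covered by the intervals. The interval code was tested on simulated data. The labels assign 1 library to each group, so no p-value is given. Members and gene lists were chosen with earlier results of these data known. Genes named are the members, *Hsf1*, *Bag3*, *Hsp90ab1*, *Hsp90b1*, *Hspd1*, genes among the 3 highest and 3 lowest ratios of each list, and genes among the 10 with the highest r to the pair; the like genes of the other members were picked after their values were seen. The doublet score was rebuilt after the Scrublet method. Alternatives were other cell filters, classes, resolutions, denominators, doublet removal, free RNA subtraction, and thinning. Totals per library were 101811035 (CBM), 135207987 (TBM), 145301019 (CS), and 176094297 (TS) UMIs.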

Additional observations from a re-analysis of the deposited data

Results flagged for a closer look

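In HSPC-like cells, *Hspa1a* plus *Hspa1b* was lower in the tumor-bearing than in the control library in spleen (log2 ratio -0.82) and higher in bone marrow (0.69), so the tumor comparison had opposite signs in the 2 tissues. With cells thinned to 2000 UMIs the bone marrow ratio was -1.18, and no spleen ratio could be computed because CS held 0 UMIs of the pair. The bone marrow interval included 0, the levels rest on 19 to 69 UMIs per library, and the difference between the tissues was not tested, since each group is 1 library. *Dnajb1* also had opposite signs, -0.15 in spleen and 0.09 in bone marrow, and both intervals included 0, so neither direction exceeded counting error; this difference was not tested either.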

How the results depend on the processing

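The log2 ratio of *Hspa1a* plus *Hspa1b* in HSPC-like cells stayed above 0 for CS over CBM and TS over TBM and below 0 for TS over CS under every alternative that gave a value, and 51 of 58 values lay within the counting interval of the main value. Those outside it for CS over CBM were 3.97 with 10% free RNA subtracted and 1.90 in cluster 2 alone. For TS over TBM they were 0.58 with classes from each cell's own marker UMIs, 2.59 after thinning to 2000 UMIs, and 0.46 in cluster 16 alone. For TS over CS the own-marker classes gave -2.10, and for TBM over CBM thinning gave -1.18. Thinning left 0 UMIs in CS, so no ratio with CS could be computed there, and single clusters under 50 cells in a library were not run. The count of members past 2-fold was 0 in 57 of 60 values. It was 1 for CS over CBM in cluster 2 alone (*Dnajb1*, 1.00) and after thinning (*Hsph1*, 1.35), and 1 for TS over TBM with own-marker classes (*Hsph1*, 1.24). Among the other members, between 8 (*Dnajb1*) and 16 (*Hsp90aa1*) of 60 values each lay outside the counting interval of the main value. In CS over CBM the ratios ran from 0.10 to 0.47 for *Dnaja1*, 0.57 to 1.00 for *Dnajb1*, 0.19 to 1.35 for *Hsph1*, 0.20 to 0.37 for *Hspa8*, 0.16 to 0.53 for *Hspa5*, -0.02 to 0.63 for *Hspe1*, and -0.19 to 0.43 for *Hsp90aa1*. In TS over TBM they ran from 0.04 to 0.45, 0.17 to 0.93, 0.31 to 1.24, 0.21 to 0.44, -0.04 to 0.33, -0.02 to 0.77, and -0.02 to 0.39 in the same order. The lowest *Dnaja1* and *Dnajb1* values in both came with own-marker classes. The share of all genes past 2-fold rose to between 1.38% and 2.36% with a minimum of 5 CPM and to between 11.4% and 13.5% with no minimum. The single clusters and the removal of the cell with most pair UMIs were added after the data were seen. No paired analysis was possible because each group has 1 library. The cause of these changes was not tested.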

Other observations

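An unnamed cluster of 271 cells (cluster 22) had far more *Hspa5*, the ER chaperone gene, than any named class. It stood at 3600 CPM in TBM (143 cells, 1519 UMIs, interval 3421 to 3786) and at 1824 CPM in CS (76 cells, 601 UMIs, 1681 to 1976), against at most 1322 CPM in the named units. The free RNA of these libraries held *Hspa5* at 610 and 338 CPM. Its cells were shallow, with a median of 0.16 of their library's median UMIs, and had a median of 6.66% mitochondrial UMIs, and *Tsix*, *Gm7480*, *B3galt2*, and *Mpo* led it. Of the other unnamed clusters, *Hspa5* was highest in cluster 28 of TBM, at 829 CPM. These clusters and genes were chosen after their values were seen.

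Among the unnamed clusters the inducible HSP70 pair was highest in cluster 10 of CS, at 27.6 CPM (161 UMIs in 358 cells), where *Dnajb1* was at 138 CPM. Of the 10 genes whose levels over the 28 units were most like the pair, 4 lie on chromosome 17, the chromosome of *Hspa1a* and *Hspa1b*, against 5.2% of the 6233 genes compared. *H2-D1*, a major histocompatibility gene, starts 0.294 Mb from *Hspa1a*, *Ppp1r11* 1.98 Mb, and *Znrd1* 1.99 Mb, while *Dynlt1f* lies 28.3 Mb away (GRCm38, GENCODE M21). This was noticed after the list was made.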
